A study of Homo sapiens with 10 samples.

Results

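The cyclins D, E, A, B and G are the 10 genes CCND1, CCND2, CCND3, CCNE1, CCNE2, CCNA2, CCNB1, CCNB2, CCNG1 and CCNG2, chosen by symbol from the 58302 rows of a table of transcript levels. Those levels came from RNA sequencing of KYSE-410, an established line of human squamous cell carcinoma of the esophagus. Cells were given 2 µM K149 (3 libraries) or 20 µM AS1949490 (2 libraries), inhibitors of the lipid phosphatase SHIP2, and were collected after 48 h. Each inhibitor was set against its own DMSO libraries (0.1% DMSO), 3 for K149 and 2 for AS1949490. All 10 libraries came from the same line, and the labels do not say whether the libraries of a group were separate cultures. Effects are given against the DMSO of the same arm, since the doses and the controls were not shared.

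Cyclins are the regulatory subunits of the cyclin-dependent kinases (CDKs), and those of the E, A and B types are made and destroyed once in each division cycle. Cyclins D1, D2 and D3 bind CDK4 and CDK6 and respond to growth factor signalling in G1, cyclins E1 and E2 bind CDK2 at entry into S phase, cyclin A2 binds CDK2 and then CDK1 through S and G2, and cyclins B1 and B2 bind CDK1 to drive mitosis. The G cyclins stand apart from this series. CCNG1 is a transcriptional target of p53, CCNG2 is a target of FOXO factors that PI3K and AKT signalling keeps out of the nucleus, and both proteins are known to associate with protein phosphatase 2A. Genes of the A and B cyclins are repressed in resting cells by the DREAM complex, which reaches them through a promoter word called the cell cycle genes homology region (CHR), and are driven in G2 by NF-Y, which binds the word CCAAT.

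RefSeq promoters were searched for 7 of the 10 genes: CCND3, CCNE1, CCNA2, CCNB1, CCNB2, CCNG1 and CCNG2. Promoters of the remaining cyclins were not searched, so the presence or absence of any word there is not known. The 200 bases before the RefSeq start site (GRCh38.p14) are shown for the 3 cyclins that fell most with K149 and for CCNG2, which rose most. They are CCNA2 (chr4:121823884-121824083, minus strand), CCNB1 (chr5:69166950-69167149, plus strand), CCNB2 (chr15:59104946-59105145, plus strand) and CCNG2 (chr4:77157007-77157206, plus strand). The GENCODE 29 models of these 4 genes begin inside these windows. Each sequence is written 5′ to 3′ on the strand of the gene, and capitals mark the words searched for.
CCNA2: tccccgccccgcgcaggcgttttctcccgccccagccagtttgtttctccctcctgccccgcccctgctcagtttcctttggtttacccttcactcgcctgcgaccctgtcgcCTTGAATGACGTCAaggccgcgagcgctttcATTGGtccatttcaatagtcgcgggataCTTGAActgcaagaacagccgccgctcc
CCNB1: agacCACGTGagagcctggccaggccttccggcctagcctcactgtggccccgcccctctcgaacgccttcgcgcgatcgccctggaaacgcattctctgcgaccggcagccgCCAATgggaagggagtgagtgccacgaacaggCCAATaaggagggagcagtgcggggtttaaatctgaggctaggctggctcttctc
CCNB2: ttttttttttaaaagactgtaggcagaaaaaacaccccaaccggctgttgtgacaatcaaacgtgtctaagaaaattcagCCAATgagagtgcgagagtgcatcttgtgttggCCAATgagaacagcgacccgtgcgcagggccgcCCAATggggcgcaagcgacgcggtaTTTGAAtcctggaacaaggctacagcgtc
CCNG2: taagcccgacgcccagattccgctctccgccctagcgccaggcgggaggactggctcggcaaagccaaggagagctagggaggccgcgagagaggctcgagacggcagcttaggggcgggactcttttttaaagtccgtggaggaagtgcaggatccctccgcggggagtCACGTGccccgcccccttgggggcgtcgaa

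The words were searched on both strands of these windows. The CHR was searched in the form TTTGAA, in the form TTCGAA and in the form CTTGAA. Such words lay 29 to 24 bases before the start of CCNB2 and at 2 places before that of CCNA2 (87 to 82 and 28 to 23 bases), and no CHR word was found in the window of CCNB1. At least 1 CHR word stood in 17.2% of all 35116 RefSeq windows of this length. CCAAT stood 3 times in the window of CCNB2, beginning 120, 87 and 54 bases before the start, and 2 times in that of CCNB1, beginning 87 and 55 bases before it. The window of CCNA2 held it once on the opposite strand (ATTGG). The word was not limited to the cyclins that fell most, since it stood 3 times in each of 2 overlapping windows of CCNG1 and once in each of 2 of the 3 windows of CCND3, and it was in none of the windows of CCNE1 and CCNG2. Neighbouring CCAAT words of CCNB1 and CCNB2 thus began 32 or 33 bases apart, a spacing picked out after the windows were seen. Such a pair, counted on the gene strand alone, was present in 0.234% of all windows. The word itself, counted on either strand, stood in 28.0% of windows, so the 2 shares are not counted alike. CCNA2 also held the cyclic AMP response word TGACGTCA (1.57% of all windows), which begins beside the upstream CHR word. The word CACGTG (5.49% of all windows) stood in the windows of CCNB1 and CCNG2. The FOXO word GTAAACA (2.32% of all windows) was not in the window of CCNG2, and neither E2F word (TTTGGCGC or TTTCGCGC, 0.795% of all windows) was in any of the 7 genes' windows. The AP-1 word TGACTCA (3.54% of all windows) was likewise in none of them. These matches are letters in a window and do not show that a factor bound there.

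Levels are in CPM (read counts scaled to library size), as the authors deposited them. All values were whole steps of about 0.05 CPM, of which each library held close to 20.01 M in all. The pattern of the low steps could be described by counts scaled to that common total and rounded up, a step that no source records, and depth inferred in this way ran from 18.4 to 26.4 M reads per library. On that reading 1 read stands at about 0.05 CPM in 8 libraries, and at about 0.1 CPM in K149 replicate 3 and in DMSO replicate 1 of the AS1949490 arm, where the lowest step was empty. K149 replicate 2 differed from the other K149 libraries more than those did from each other (chi-square per degree of freedom 6.5 and 8.07, against 2.6), and the DMSO libraries of the AS1949490 arm differed most of any pair (9.02). Among 12 squamous markers, TP63 averaged 95.8 CPM with K149, 119 CPM in its DMSO, 98.6 CPM with AS1949490 and 80.8 CPM in its DMSO, while KRT5 averaged 1.18 to 8.91 CPM, KRT14 0.616 to 1.12 CPM and SOX2 0.125 to 1.23 CPM over the 4 groups. The basal keratin KRT17 was well detected, at 40.4 CPM with K149, 84.6 CPM in its DMSO, 101 CPM with AS1949490 and 209 CPM in its DMSO, and KRT15 averaged 4.52 to 23.9 CPM. Summed squamous markers ran from 793.8 to 829.1 CPM with K149 and from 885.6 to 898.4 CPM in its DMSO. They ran from 1145 to 1254 CPM with AS1949490 and from 1001 to 1090 CPM in its DMSO. In every group the integrins ITGA6 and ITGB4 were the largest members of the sum. ITGA6 averaged 315 CPM with K149, 272 CPM in its DMSO, 392 CPM with AS1949490 and 296 CPM in its DMSO. ITGB4 averaged 300, 310, 479 and 368 CPM in the same order. Group means of DSC3 ran from 41.7 to 91.8 CPM, of DSG3 from 3.2 to 23.0 CPM and of KRT6A from 0.533 to 6.40 CPM, and PKP1 stayed below 1 CPM. Of the other cell types checked, the 8 columnar markers summed to between 9.69 and 24.4 CPM. CDX1 and CDX2 were at 0 in every library, and KRT20, MUC2 and TFF3 averaged below 1 CPM in every group. VIL1 averaged 7.60 to 15.6 CPM over the 4 groups, but shares 44% of its exon bases with USP37 and is uncertain. TFF1 averaged 1.30 to 4.56 CPM and MUC5AC 0.275 to 2.00 CPM. The 6 immune markers summed to at most 1.10 CPM and the 5 endothelial markers to at most 2.70 CPM. The 6 fibroblast markers summed to between 257.1 and 274.7 CPM with K149 and between 230.4 and 242.5 CPM in its DMSO, and to between 45.4 and 46.3 CPM with AS1949490 and between 38.9 and 44.0 CPM in its DMSO. Of these, LUM averaged 253.6 CPM with K149 and 221.5 CPM in its DMSO, and 25.1 CPM with AS1949490 and 14.2 CPM in its DMSO, and the collagen COL1A1 averaged 9.83 CPM with K149 and 10.6 CPM in its DMSO, and 18.6 CPM with AS1949490 and 25.4 CPM in its DMSO. The collagens COL1A2 and COL3A1 stayed below 1 CPM on average in every group. The part of these marker levels in the results on cyclins was not tested.

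With K149, cyclins A2, B1 and B2 fell 13.05- to 16.4-fold, cyclins E1 and E2 fell 3.30- to 3.74-fold, CCNG1 and CCND3 fell slightly, and CCND1 and CCNG2 rose. Of the 9 cyclins with enough signal to test, 2 rose and 7 fell (limma, adjusted p under 0.05), in a comparison in which 66.4% of all 17837 tested genes were called, 35.8% higher and 30.6% lower. No K149 library overlapped a DMSO library for any of the 9, and 37.7% of all tested genes lay wholly above and 32.6% wholly below their DMSO libraries. With so many genes called, a call alone says little, so the sizes are given for each gene. The median log2 fold of the 9 was -1.31, beside 0.04 for all tested genes. With AS1949490, 5 of the 9 fell and 0 rose, where 51.6% of all tested genes were called, 32.1% higher and 19.5% lower. Of all calls with AS1949490, 62.2% were higher, a share that was 50.6% with median-of-ratios scaling, 49.6% with quantile normalization and 47.7 to 49.9% with edgeR and DESeq2. For 6 of the 9 both AS1949490 libraries lay below both controls and for 0 above, beside 30.5% of all tested genes below and 44.5% above. No cyclin was higher with AS1949490 at an unadjusted limma p under 0.05 either (0 of 9), nor by edgeR or DESeq2. The 9 had a median log2 fold of -0.28 with AS1949490, beside 0.08 for all tested genes. In bulk RNA, fewer cells carrying a transcript and less of it per cell cannot be told apart.

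**Figure D1:**
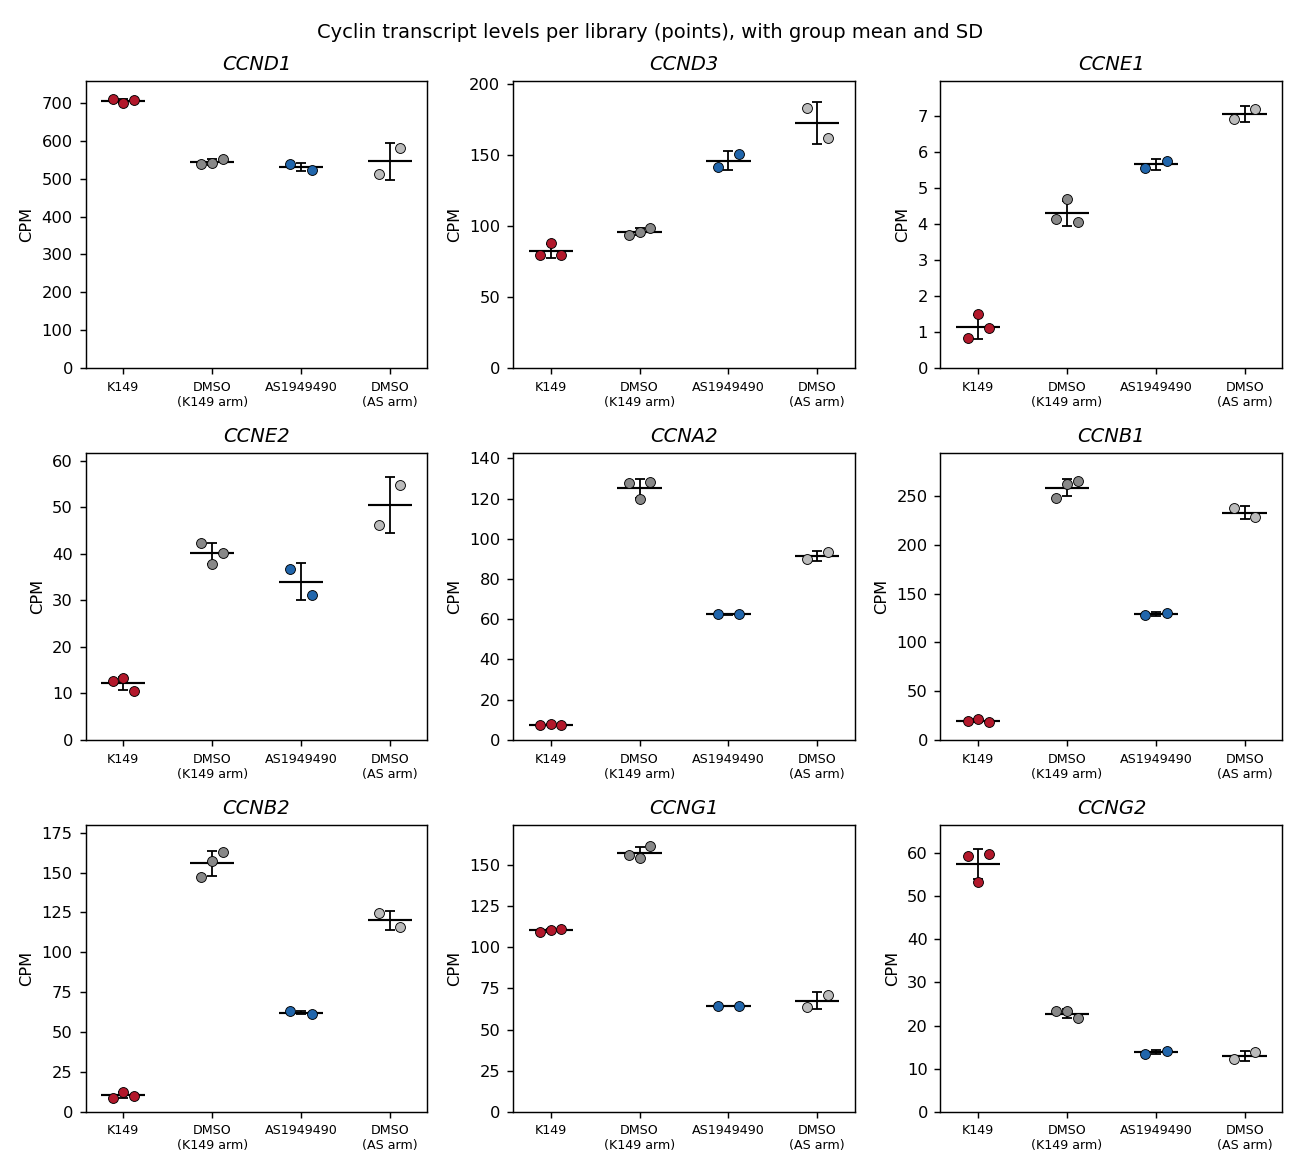
Levels of the 9 tested cyclins in CPM (vertical axis, linear from 0) in each library (points), with the group mean (line) and SD (bar). CCNA2, CCNB1 and CCNB2 were lowest in the 3 K149 libraries, CCND1 and CCNG2 were highest there, and the AS1949490 libraries lay between K149 and DMSO for CCNA2, CCNB1, CCNB2 and CCNE2.

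Cyclin D1, the main D cyclin of these cells, rose with K149 only slightly but evenly. CCND1 (ENSG00000110092, GRCh38 chromosome 11, as for all positions of genes that follow, 69641087 to 69654474, plus strand) had 709, 699 and 708 CPM with K149, against 539, 542 and 552 CPM in DMSO. All 3 K149 libraries were higher than all 3 controls, 1.30-fold in the means, and the log2 fold was 0.37 ± 0.05 (SE), past the threshold in limma (adjusted p = 1.37e-05). AS1949490 cells had 538 and 523 CPM, against 512 and 579.9 CPM in DMSO, so the AS1949490 values lay inside the range of their controls. That log2 fold was -0.04 ± 0.06 (adjusted p = 0.622, approximate 95% interval -0.15 to 0.08). The effects of K149 and AS1949490 on CCND1 differed by 0.41 ± 0.08 (adjusted p = 0.000863). CCND1 shares 10.3% of its exon bases with a gene on the opposite strand.

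Cyclin D3, the other D cyclin with signal, was a little lower with each inhibitor. CCND3 (ENSG00000112576, chromosome 6, 41934933 to 42050357, minus strand) had 79.7, 87.9 and 79.7 CPM with K149, against 93.8, 95.5 and 98.8 CPM in DMSO. The K149 libraries were all below the controls, with a log2 fold of -0.22 ± 0.06 (limma adjusted p = 0.00502). With AS1949490 it had 141 and 151 CPM, against 183 and 162 CPM in DMSO, again without overlap. Its log2 fold there was -0.24 ± 0.07 (adjusted p = 0.0149), a call that was lost without AS1949490 replicate 1 (adjusted p = 0.123), without DMSO replicate 1 of that arm (adjusted p = 0.128) and in a fit of that arm alone (adjusted p = 0.0541). The effects differed by 0.02 ± 0.09 (adjusted p = 0.903), with an approximate 95% interval of -0.17 to 0.20 for that difference. CCND2 (ENSG00000118971, chromosome 12, 4273772 to 4305350, plus strand) was listed at 0.05 CPM in 1 K149 library and at 0 in the other two and in their DMSO. It was at 0 with AS1949490 and at 0.1 and 0.05 CPM in that arm's DMSO. By the inferred depths 3 reads stand at about 0.15 CPM, or about 0.2 CPM in the 2 libraries with an empty lowest step. Every CCND2 value was below that, so it was not tested and no fold is given.

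Both E cyclins fell with K149. CCNE1 (ENSG00000105173, chromosome 19, 29811898 to 29824308, plus strand) had 0.849, 1.5 and 1.10 CPM with K149, against 4.15, 4.70 and 4.05 CPM in DMSO. The groups did not overlap, the means differed 3.74-fold, and the log2 fold was -1.31 ± 0.11 (limma adjusted p = 2.32e-07). At such low levels the pseudocount sets the fold, which was -0.60 with a pseudocount of 5. With AS1949490, CCNE1 had 5.55 and 5.75 CPM, against 6.89 and 7.20 CPM in DMSO. Both AS1949490 values were below both controls, but the log2 fold of -0.28 ± 0.14 did not pass (limma adjusted p = 0.113, unadjusted p = 0.0683, approximate 95% interval -0.55 to -0.00). It did pass with median-of-ratios scaling (adjusted p = 0.0484), quantile normalization (0.0184), edgeR on 10 libraries (0.0361) and a pseudocount of 5 (0.0313).

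CCNE2 was the more abundant E cyclin, and it fell with each inhibitor. CCNE2 (ENSG00000175305, chromosome 8, 94879770 to 94896678, minus strand) had 12.7, 13.2 and 10.5 CPM with K149, against 42.4, 37.8 and 40.2 CPM in DMSO. The log2 fold was -1.65 ± 0.10 (limma adjusted p = 3.5e-09), a 3.30-fold difference in the means. With AS1949490 it had 36.8 and 31.2 CPM, against 46.2 and 54.7 CPM in DMSO, without overlap and with a log2 fold of -0.56 ± 0.12 (adjusted p = 0.00148). The 3 K149 values were thus below every other library of the series. The effect of K149 was larger for both E cyclins, by -1.04 ± 0.18 for CCNE1 (adjusted p = 0.000475) and -1.09 ± 0.15 for CCNE2 (adjusted p = 7.7e-05). CCNE2 is uncertain in level, since 37.1% of its exon bases are shared with INTS8 on the other strand, which was at 108 to 113 CPM with K149 and 98.0 to 106 CPM in its DMSO, and at 87.1 to 89.0 CPM with AS1949490 and 86.0 to 89.2 CPM in its DMSO. The part of those reads in the CCNE2 values was not tested.

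Cyclin A2 fell most of the 9 cyclins with K149. CCNA2 (ENSG00000145386, chromosome 4, 121816444 to 121823933, minus strand) had 7.55, 8.05 and 7.24 CPM with K149, against 128, 119.5 and 128 CPM in DMSO. The groups were far apart, the mean was 16.4-fold lower with K149, and the log2 fold was -3.87 ± 0.06 (limma adjusted p = 2.31e-15). Ranked by log2 fold with K149, CCNA2 was 56th from the lowest of the 17837 tested genes, CCNB2 69th and CCNB1 94th. With AS1949490, CCNA2 had 62.7 and 62.4 CPM, against 89.9 and 93.4 CPM in DMSO, which is 1.47-fold lower in the means (log2 fold -0.54 ± 0.07, adjusted p = 3.52e-05). The effects differed by -3.33 ± 0.09 (adjusted p = 1.37e-11), the largest difference between the inhibitors among the 9. CCNA2 shares 9.08% of its exon bases with EXOSC9 on the other strand, which had 12.5 to 15.5 CPM with K149 and 41.3 to 45.2 CPM in its DMSO, and 30.7 to 30.8 CPM with AS1949490 and 40.5 to 41.5 CPM in its DMSO.

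The mitotic cyclins B1 and B2 followed. CCNB1 (ENSG00000134057, chromosome 5, 69167010 to 69178245, plus strand) had 19.5, 21.9 and 18.1 CPM with K149, against 248.5, 262 and 266 CPM in DMSO, a log2 fold of -3.64 ± 0.06 (limma adjusted p = 6.85e-15). CCNB2 (ENSG00000157456, chromosome 15, 59105078 to 59125045, plus strand) had 8.75, 12.5 and 9.59 CPM with K149, against 147.5, 158 and 163 CPM in DMSO, a log2 fold of -3.81 ± 0.09 (adjusted p = 3.22e-13). K149 replicate 2 was the highest of the K149 libraries for both genes, yet it lay far below every control. Without that library the log2 folds were -3.71 for CCNB1 and -3.95 for CCNB2. With AS1949490, CCNB1 had 128 and 130.5 CPM, against 238 and 228 CPM in DMSO, and CCNB2 had 63.1 and 61.4 CPM, against 124 and 116 CPM in DMSO. The AS1949490 libraries were again below both controls, 1.80-fold for CCNB1 (log2 fold -0.85 ± 0.08, adjusted p = 2.31e-06) and 1.93-fold for CCNB2 (-0.94 ± 0.12, adjusted p = 2.66e-05). The effects differed by -2.8 ± 0.10 for CCNB1 (adjusted p = 7.79e-11) and by -2.87 ± 0.15 for CCNB2 (adjusted p = 4.55e-09).

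The G cyclins went opposite ways with K149. CCNG1 (ENSG00000113328, chromosome 5, 163437569 to 163446151, plus strand), the p53 target, had 109, 110.5 and 111 CPM with K149, against 156, 154 and 161 CPM in DMSO. It fell 1.43-fold, evenly across libraries, with a log2 fold of -0.51 ± 0.05 (limma adjusted p = 9.53e-07). CCNG2 (ENSG00000138764, chromosome 4, 77157151 to 77433388, plus strand), the FOXO target, had 59.3, 53.4 and 59.7 CPM with K149, against 23.3, 23.4 and 21.6 CPM in DMSO. All 3 K149 values were above every control, 2.52-fold in the means, and the log2 fold was 1.30 ± 0.07 (adjusted p = 2.41e-09), which ranked 243rd from the highest of all tested genes. With AS1949490, CCNG1 had 64.4 and 64.1 CPM, against 64.0 and 71.3 CPM in DMSO, and CCNG2 had 13.4 and 14.1 CPM, against 12.1 and 13.8 CPM in DMSO. Treated and control libraries overlapped for both genes. Their log2 folds with AS1949490 were -0.07 ± 0.06 for CCNG1 (adjusted p = 0.356, approximate 95% interval -0.19 to 0.05) and 0.08 ± 0.09 for CCNG2 (adjusted p = 0.461, interval -0.09 to 0.26). The effects differed by -0.44 ± 0.08 for CCNG1 (adjusted p = 0.000711) and 1.21 ± 0.12 for CCNG2 (adjusted p = 2.2e-06).

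**Figure D2:**
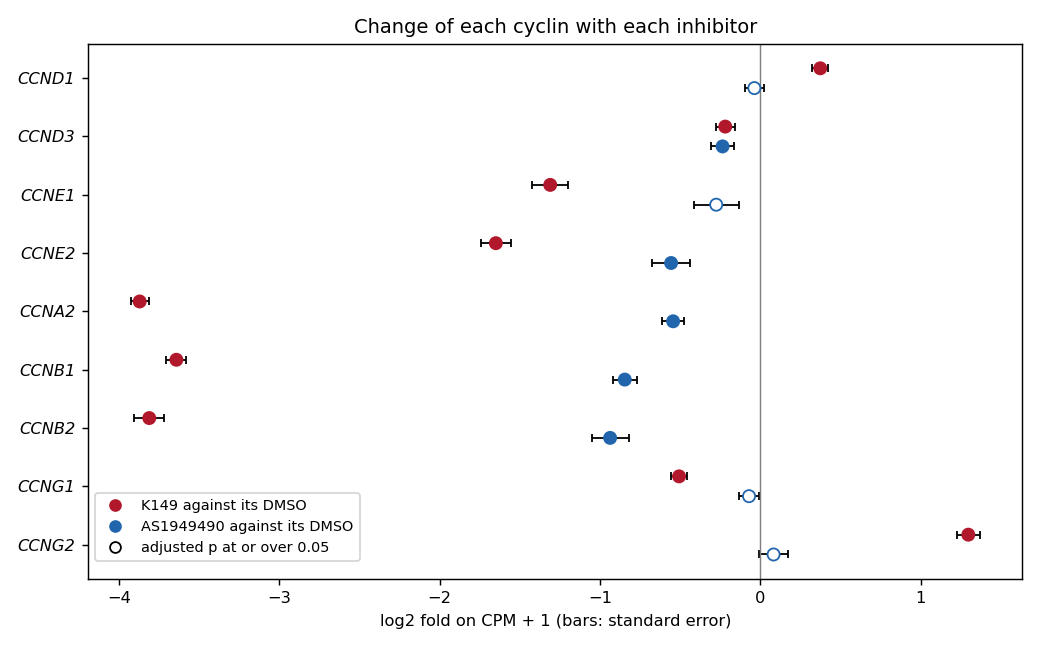
Log2 fold on CPM + 1 (horizontal axis, bars are standard errors) of each cyclin with K149 and with AS1949490 against their own DMSO libraries, with open points where the adjusted p was 0.05 or more. CCNA2, CCNB1 and CCNB2 lie between -3.87 and -3.64 with K149 and between -0.94 and -0.54 with AS1949490, and the CCND3 points of the inhibitors lie side by side.

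Across the 9 cyclins, 8 had effects that differed between the inhibitors (2 with a higher and 6 with a lower log2 fold with K149), where 40.4% of all tested genes were called, 15.1% higher and 25.3% lower. Of those calls 37.4% were higher, and 52.1% with quantile normalization. The median difference of effects was -1.04 for the 9 and -0.07 for all tested genes. The doses were 2 µM for K149 and 20 µM for AS1949490, and the controls were other libraries, so these differences are between the treatments as given.

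The control libraries of the arms were not alike for these genes. With the DMSO of the K149 arm set against the DMSO of the AS1949490 arm, 4 cyclins were higher and 3 lower of the 9 (66.2% of all tested genes were called, 37.1% higher and 29.1% lower). Without overlap between the control groups, 5 of the 9 lay above and 3 below, beside 42.5% and 33.9% of all tested genes. CCNG1 differed most, with a mean of 157 ± 3.72 CPM in the DMSO of the K149 arm (SD, n = 3) and 67.6 ± 5.14 CPM in that of the AS1949490 arm (SD, n = 2), a log2 fold of 1.21 ± 0.06 (limma adjusted p = 5.44e-10). CCNG2 was also higher in the DMSO of the K149 arm, at 22.8 ± 0.98 CPM against 13.0 ± 1.2 CPM (0.77 ± 0.08, adjusted p = 2.01e-06), and so were CCNA2 (0.44 ± 0.06) and CCNB2 (0.37 ± 0.11). CCND3 was lower there, at 96.0 ± 2.54 CPM against 172 ± 14.5 CPM in the AS1949490 arm (-0.83 ± 0.07, adjusted p = 1.12e-07), as were CCNE1 (-0.60 ± 0.13) and CCNE2 (-0.32 ± 0.11, adjusted p = 0.0174). The CCNE2 call was lost without DMSO replicate 2 of the K149 arm (adjusted p = 0.0645) and without DMSO replicate 2 of the AS1949490 arm (adjusted p = 0.172). CCND1 had a log2 fold of -0.00 ± 0.05 between the controls (adjusted p = 0.979, approximate 95% interval -0.11 to 0.11). CCNB1 was at 0.15 ± 0.07 (adjusted p = 0.0736), which passed without K149 replicate 2 (adjusted p = 0.0212) or without K149 replicate 3 (adjusted p = 0.0446), because those libraries enter the shared estimate of the spread. Arm and preparation of these libraries cannot be told apart.

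Levels of different genes were compared per kilobase of exon (CPM per kb, with all annotated exons merged). CCND1 had the most transcript per length in every group, at 146 ± 1.2 CPM per kb with K149 and 113 ± 1.46 CPM per kb in its DMSO (SD, n = 3), and at 109.9 ± 2.27 CPM per kb with AS1949490 and 113 ± 9.99 CPM per kb in its DMSO (SD, n = 2). In K149 cells CCNG1 (35.7 CPM per kb) and CCND3 (14.2) came next, then CCNB1 (7.75) and CCNG2 (7.69), whose ranges overlapped. CCNB2 (3.67) followed, and CCNE2 (2.77) and CCNA2 (2.72) overlapped as well. In the DMSO cells of that arm the order after CCND1 was CCNB1 (101 CPM per kb), CCNB2 (55.7), CCNG1 (50.8), CCNA2 (44.7), CCND3 (16.6), CCNE2 (9.13), CCNG2 (3.05) and CCNE1 (1.69), each apart from the next. CCNB1 thus held rank 2 in these control cells and rank 4 in K149 cells. In AS1949490 cells the order was CCNB1 (50.5 CPM per kb), CCND3 (25.2), CCNA2 (22.3), CCNB2 (22.2), CCNG1 (20.8), CCNE2 (7.73), CCNE1 (2.21) and CCNG2 (1.85), with overlapping ranges for CCNA2 and CCNB2 alone. In their DMSO cells it was CCNB1 (91.2 CPM per kb), CCNB2 (42.9), CCNA2 (32.8), CCND3 (29.7), CCNG1 (21.8), CCNE2 (11.5), CCNE1 (2.76) and CCNG2 (1.74), each apart from the next. The annotated exons of CCNG2 cover 7471 bases, the most of the 10 genes, which lowers its level per length if the cells use a short isoform.

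In K149 cells most cyclin transcript per length was that of D cyclins, while in DMSO cells cyclins A2, B1 and B2 were the largest class per length. In CPM not divided by length, the D cyclins were the largest class in every group. They then summed to 788 CPM with K149 and 640.1 CPM in its DMSO, where A2, B1 and B2 summed to 37.7 and 539.7 CPM. In the other arm the D cyclins summed to 677 CPM with AS1949490 and 718 CPM in its DMSO, where A2, B1 and B2 summed to 254 and 445 CPM. All 10 cyclins together came to 220.9 ± 1.06 CPM per kb with K149 and 395.4 ± 8.59 CPM per kb in its DMSO (SD, n = 3 each), and to 263 ± 1.76 CPM per kb with AS1949490 and 347 ± 6.86 CPM per kb in its DMSO (SD, n = 2 each). Cyclins A2, B1 and B2 made up 6.40 ± 0.66% of that sum with K149, against 51.0 ± 0.52% in its DMSO, and 36.2 ± 0.32% with AS1949490, against 48.0 ± 2.07% in its DMSO. The D cyclins held 72.5 ± 0.51% of it with K149, against 32.7 ± 0.23% in its DMSO, and 51.4 ± 0.08% with AS1949490, against 41.1 ± 1.35% in its DMSO. The G cyclins held 19.6 ± 0.35% with K149, against 13.6 ± 0.19% in its DMSO, and 8.60 ± 0.06% with AS1949490, against 6.79 ± 0.39% in its DMSO. E cyclins were the smallest class throughout, at 1.46 ± 0.17% with K149 and 2.74 ± 0.15% in its DMSO, and 3.78 ± 0.30% with AS1949490 and 4.10 ± 0.34% in its DMSO. D cyclin transcript per length was 11.4 ± 1.19 times that of A2, B1 and B2 together with K149, against 0.641 ± 0.011 times in its DMSO, and 1.42 ± 0.015 times with AS1949490, against 0.856 ± 0.065 times in its DMSO. These sums and ratios describe the libraries and were not tested.

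**Figure D3:**
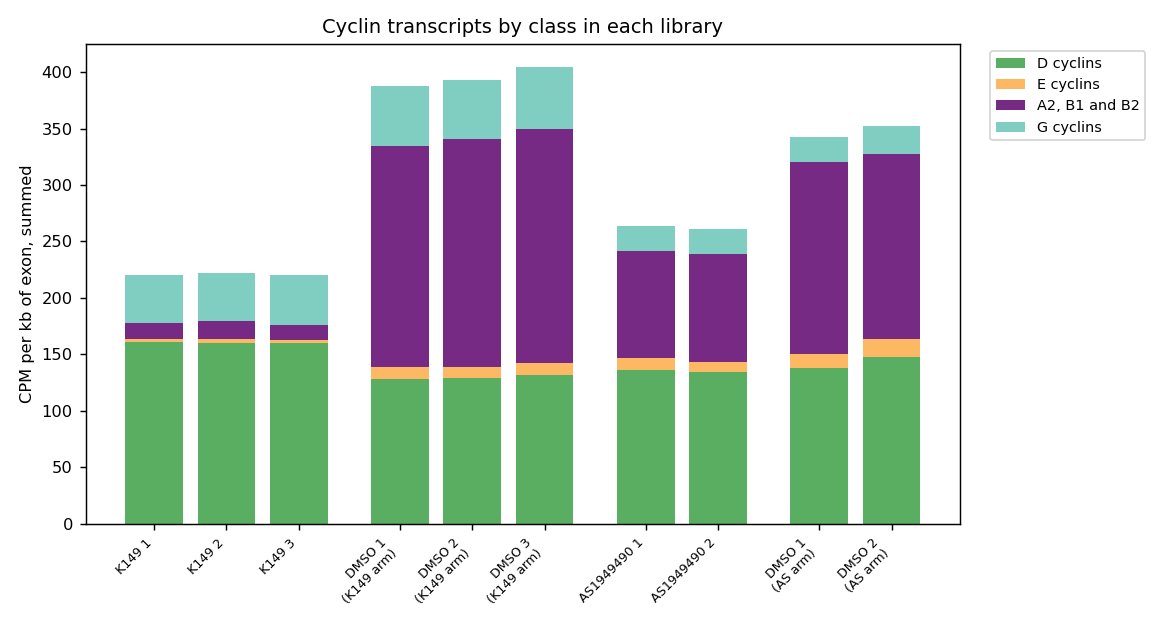
Summed cyclin transcript per length (CPM per kb of exon, stacked bars from 0) in each library, split into D, E, A2 with B1 and B2, and G cyclins. The class of A2, B1 and B2 is a thin band in the 3 K149 libraries and the largest class per length in the 5 DMSO libraries, while the D class averages 129 to 160.2 CPM per kb in the 4 groups.

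Within families, shares per length were compared library by library, which removes the scaling between libraries. CCNG2 made up 17.7 ± 0.92% of the G cyclins with K149, against 5.66 ± 0.35% in its DMSO, which is 12.1 percentage points more. CCND3 made up 8.87 ± 0.53% of the D cyclins with K149, against 12.8 ± 0.15% in its DMSO, and CCNB2 made up 31.97 ± 2.65% of the B cyclins, against 35.5 ± 0.37%. For each of these 3 shares the libraries did not overlap, and the exact two-sided permutation p of 0.1 was the smallest that 3 against 3 libraries allow. CCNE2 made up 86.0 ± 3.22% of the E cyclins with K149, against 84.4 ± 1.75% in its DMSO, and those libraries overlapped (exact p = 0.6). With AS1949490, CCNG2 made up 8.17 ± 0.29% of the G cyclins, against 7.37 ± 0.11% in its DMSO, and CCNB2 made up 30.5 ± 0.69% of the B cyclins, against 31.99 ± 0.44%. CCNE2 made up 77.6 ± 2.46% of the E cyclins with AS1949490, against 80.5 ± 1.4% in its DMSO. For these 3 shares the exact two-sided permutation p was 0.33, the smallest that 2 against 2 libraries allow. CCND3 made up 18.6 ± 1.01% of the D cyclins with AS1949490, against 20.9 ± 2.85% in its DMSO, with an exact p of 0.667. None of these shares could reach 0.05 in designs of this size.

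Some of the kinases that cyclins activate fell as well. Of 11 kinases and subunits, 2 rose and 6 fell with K149 (median log2 fold -0.36), and 1 rose and 6 fell with AS1949490 (median -0.37). The 6 are 54.5% of the list, beside 30.6% of all tested genes lower with K149 and 19.5% lower with AS1949490. Those that rose are 18.2% of the list with K149 and 9.1% with AS1949490, beside 35.8% and 32.1% of all tested genes. The medians stand beside 0.04 and 0.08 for all tested genes. CDK1, the partner of cyclins A2, B1 and B2, averaged 11.0 ± 0.44 CPM with K149 and 139.6 ± 4.61 CPM in its DMSO (SD, n = 3 each). Its log2 fold was thus -3.55 ± 0.05 (adjusted p = 2.69e-15). In AS1949490 cells it averaged 77.5 ± 1.52 CPM, against 134 ± 5.77 CPM in its DMSO (-0.78 ± 0.07, adjusted p = 1.37e-06). CDK2, the partner of the E cyclins, had log2 folds of -1.7 ± 0.05 with K149 and -0.46 ± 0.06 with AS1949490. CDK6, a partner of the D cyclins, rose with K149 (0.33 ± 0.09, adjusted p = 0.00351) and did not pass with AS1949490 (0.18 ± 0.10, adjusted p = 0.172). CDK4, the other D partner, was at -0.62 ± 0.06 with K149 and -0.37 ± 0.07 with AS1949490, but is uncertain because it shares 43.2% of its exon bases with TSPAN31. The small subunits CKS1B and CKS2 fell with K149 (-2.55 ± 0.07 and -1.39 ± 0.09) and with AS1949490 (-0.79 ± 0.09 and -0.65 ± 0.11). CDK5, which is not driven by these cyclins, rose with K149 (0.38 ± 0.09, adjusted p = 0.00159). CDK3 fell with each inhibitor (-0.36 and -0.56) but shares 91.2% of its exon bases with a readthrough gene and is uncertain. The single member called higher with AS1949490 was CCNH, cyclin of the CDK-activating kinase (0.25 ± 0.07, adjusted p = 0.0116). Its call was lost with median-of-ratios scaling, quantile normalization, edgeR and DESeq2, and without either AS1949490 library. Leaving out DMSO replicate 2 of that arm gave 2 higher members.

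CDK inhibitor proteins split by gene. CDKN1A, which encodes p21, averaged 397 ± 21.3 CPM with K149 and 130.3 ± 5.25 CPM in its DMSO (log2 fold 1.60 ± 0.06, limma adjusted p = 3.31e-11). It averaged 294 ± 20.1 CPM with AS1949490 and 196 ± 15.7 CPM in its DMSO (0.58 ± 0.07, adjusted p = 3.12e-05). CDKN2B, which encodes p15, an inhibitor of CDK4 and CDK6, averaged 196 ± 4.29 CPM with K149 and 67.9 ± 1.39 CPM in its DMSO (1.51 ± 0.08, adjusted p = 1.09e-09). Its log2 fold was 0.37 ± 0.10 with AS1949490 (adjusted p = 0.00552). CDKN2C, which encodes p18, fell with both (-1.92 ± 0.10 with K149 and -0.71 ± 0.12 with AS1949490), as did CDKN2A, the gene of p16 and ARF (-0.28 ± 0.08 and -0.80 ± 0.10). CDKN1B, which encodes p27, was lower with K149 (-0.37 ± 0.06) and higher with AS1949490 (0.20 ± 0.07, adjusted p = 0.0269), and these effects differed by -0.58 ± 0.09 (adjusted p = 0.000225). CDKN2D rose with K149 (0.41 ± 0.09) and was at -0.13 ± 0.10 with AS1949490 (adjusted p = 0.305). In all, 3 of the 6 tested inhibitors rose and 3 fell with K149 (median log2 fold 0.06), and 3 rose and 2 fell with AS1949490 (median 0.04). Of all tested genes 35.8% rose and 30.6% fell with K149, and 32.1% rose and 19.5% fell with AS1949490, so neither direction stands out among these 6. The count that rose with AS1949490 was 1 in a fit of that arm alone and with edgeR on 8 libraries. CDKN1C was too low to test.

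The enzymes that set the inhibitory tyrosine phosphate on CDKs fell together, on both sides of the switch. All 5 fell with each inhibitor, with a median log2 fold of -2.93 with K149 and -0.86 with AS1949490. Of all tested genes 30.6% fell with K149 and 19.5% with AS1949490, with medians of 0.04 and 0.08. The activating phosphatases CDC25A, CDC25B and CDC25C had log2 folds of -3.30 ± 0.09, -3.0 ± 0.07 and -2.93 ± 0.09 with K149 and of -0.97 ± 0.11, -0.56 ± 0.09 and -0.57 ± 0.11 with AS1949490. WEE1, the kinase that adds the phosphate, averaged 21.0 ± 2.05 CPM with K149 and 71.8 ± 2.02 CPM in its DMSO (-1.73 ± 0.08), and 25.1 ± 1.34 CPM with AS1949490 and 46.6 ± 5.98 CPM in its DMSO (-0.86 ± 0.10). PKMYT1, the membrane-bound kinase of the same kind, was at -2.72 ± 0.11 and -1.24 ± 0.13, and shares 31.6% of its exon bases with other genes, so it is uncertain. All 5 effects differed between the inhibitors (limma adjusted p between 1.92e-09 and 0.000126), each with the lower log2 fold with K149. In that comparison 40.4% of all tested genes were called, 15.1% higher and 25.3% lower.

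**Figure D4:**
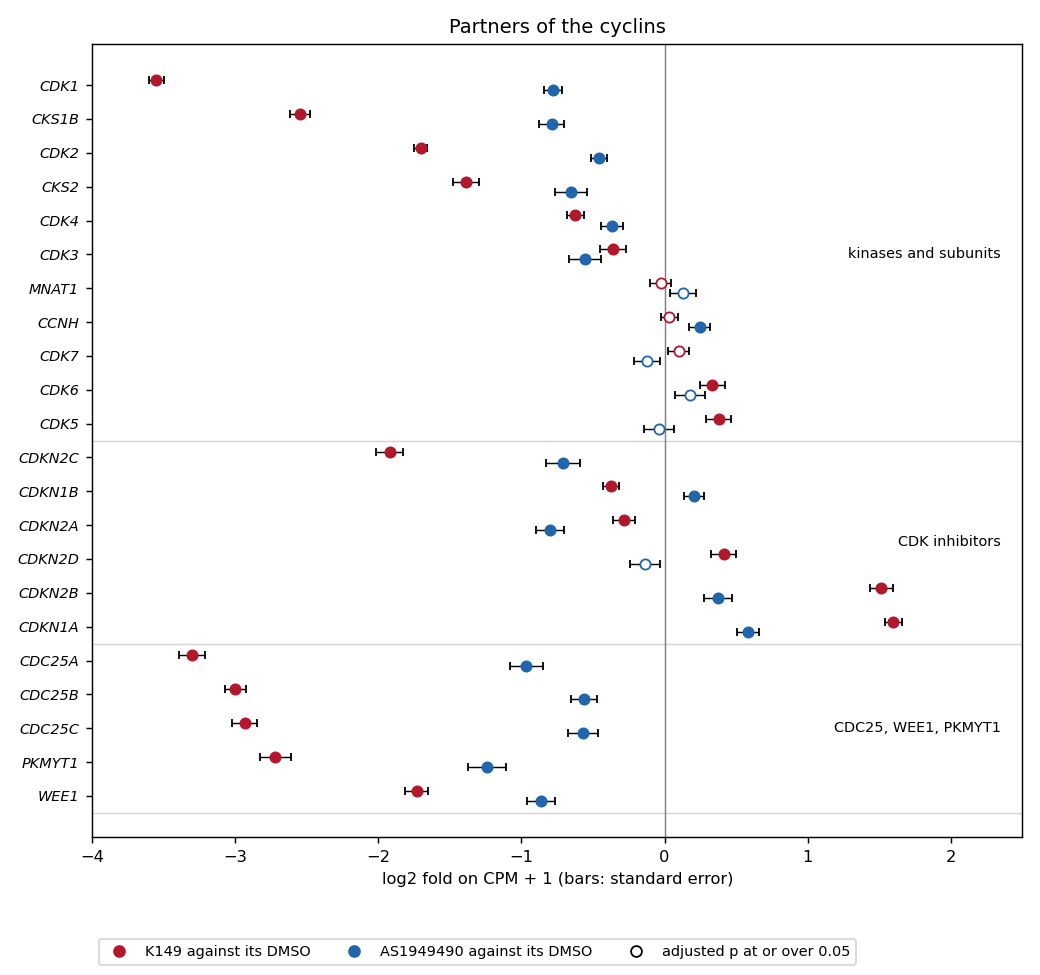
Log2 fold on CPM + 1 (horizontal axis, bars are standard errors) of 22 genes in 3 lists (kinases and subunits, CDK inhibitors, and the tyrosine switch enzymes) with K149 and with AS1949490 against their own DMSO libraries, with open points where the adjusted p was 0.05 or more. CDK1 lies at -3.55 with K149 and -0.78 with AS1949490, CDKN1A lies to the right of 0 with each inhibitor, and all 5 switch enzymes lie to the left.

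Of the genes that mark cyclins for destruction, UBE2C and CDC20 of the mitotic ligase fell most. The list held 28 genes of the anaphase-promoting complex (APC/C), of SCF and of other cullin ligases, which mark cyclins for the proteasome. Of these genes, 5 rose and 16 fell with K149 (median log2 fold -0.23), and 4 rose and 10 fell with AS1949490 (median -0.09). That is 17.9% higher and 57.1% lower with K149, beside 35.8% and 30.6% of all tested genes, and 14.3% higher and 35.7% lower with AS1949490, beside 32.1% and 19.5%. UBE2C and CDC20, the ubiquitin-conjugating enzyme and the mitotic activator of the APC/C, fell most with K149 (-4.42 and -4.25) and fell with AS1949490 (-1.07 and -1.13). FBXO5, an inhibitor of the APC/C, was next with K149 (-2.64), and ANAPC15 with AS1949490 (-1.04), though ANAPC15 shares 27.1% of its exon bases with other genes. Core subunits went both ways. ANAPC13 rose with K149 (0.45), while CDC27 and ANAPC1 rose with AS1949490 (0.54 and 0.29) and fell with K149 (-0.20 and -0.42). ANAPC4, ANAPC7 and CDC26, named after their values were seen, also fell with K149 (-0.27, -0.32 and -0.31). AMBRA1, a receptor that targets D cyclins for destruction, rose with K149 (0.27) and with AS1949490 (0.32), and SKP1 rose with K149 (0.21). The count of 5 that rose with K149 was 3 without K149 replicate 1 or 2, without DMSO replicate 1 or 3 of that arm, with no filter, with median-of-ratios scaling, with edgeR on 10 libraries and with DESeq2. The count of 4 that rose with AS1949490 was 2 with median-of-ratios scaling and with DESeq2.

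Most of the regulators of cyclin transcription fell with K149. Of 23 genes (E2F, pocket protein, DREAM and NF-Y genes, MYBL2, FOXM1 and MYC), 4 rose and 18 fell with K149 (median log2 fold -0.67), and 3 rose and 12 fell with AS1949490 (median -0.25). The share that fell was 78.3% with K149 and 52.2% with AS1949490, beside 30.6% and 19.5% of all tested genes. The share that rose was 17.4% and 13%, beside 35.8% and 32.1% of all tested genes. MYBL2, which activates the genes of the B cyclins, averaged 17.1 ± 0.95 CPM with K149 and 507 ± 6.71 CPM in its DMSO, a log2 fold of -4.82 (limma adjusted p = 2.9e-16). E2F1 and E2F2, activators of S phase genes, fell as well. E2F1 had a log2 fold of -3.85 with K149. E2F2 was at 0.05 to 0.15 CPM with K149, the level of at most 3 reads, against 16.3 to 18.9 CPM in its DMSO, so the pseudocount sets its log2 fold of -4.03 and it has no place in an order of folds. E2F2 (-1.32), E2F8 (-1.13) and E2F1 (-1.07) fell most with AS1949490. RBL2, which encodes the pocket protein p130 of the DREAM complex, rose with K149 (0.55) and with AS1949490 (0.64). NFYA, a subunit of NF-Y, did likewise (0.32 and 0.40). The other NF-Y subunits, named after their values were seen, fell with each inhibitor, NFYB by 0.80 and 0.43 and NFYC by 0.22 and 0.32 on the log2 scale. RB1 rose with AS1949490 (0.41). LIN37 of the DREAM complex rose with K149 (0.39) but shares 54.0% of its exon bases with other genes and is uncertain.

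Among the cyclins outside the 10, CCNF fell with each inhibitor. Of 15 tested, 6 rose and 3 fell with K149 (median log2 fold 0.12), and 8 rose and 1 fell with AS1949490 (median 0.19). The shares with K149, 40.0% higher and 20.0% lower, were near those of all tested genes (35.8% and 30.6%), and those with AS1949490 were 53.3% and 6.7%, beside 32.1% and 19.5%. CCNF, an F-box cyclin that peaks in G2, averaged 16.4 ± 0.36 CPM with K149 and 100.6 ± 6.79 CPM in its DMSO (-2.54, limma adjusted p = 2.22e-13), and 49.97 ± 2.68 CPM with AS1949490 and 79.8 ± 2.25 CPM in its DMSO (-0.66, adjusted p = 1.2e-05). With K149, CCNJL (0.62), CCNI (0.48) and CCNY (0.45) rose most, and CCNJ (-0.27) and CCNK (-0.13, with 59.5% of its exon bases shared) were the others that fell. With AS1949490, CCNT1 (0.38), CNTD1 (0.36) and CCNYL1 (0.35) rose most. The 8 that rose with AS1949490 were 4 without either AS1949490 library, with median-of-ratios scaling and with edgeR on 10 libraries. They were 5 with no filter, with quantile normalization, in that arm alone and without its DMSO replicate 1, 3 with DESeq2 and 1 with edgeR on 8 libraries, and the 3 that fell with K149 were 1 without DMSO replicate 2 of that arm.

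Of 11 partners of the G cyclins (subunits of protein phosphatase 2A, MDM2 and the kinase GAK), 4 rose and 0 fell with K149 (median log2 fold -0.02), and 5 rose and 1 fell with AS1949490 (median 0.15). The share that fell was 0% with K149 and 9.1% with AS1949490, beside 30.6% and 19.5% of all tested genes. The share that rose, 36.4% with K149 and 45.5% with AS1949490, stands beside 35.8% and 32.1% of all tested genes. The count that rose with K149 thus does not set these genes apart. The count of 0 by limma was 2 at an unadjusted p under 0.05, 3 by edgeR on 10 libraries, 1 by edgeR on 8, 2 by DESeq2, 3 with median-of-ratios scaling, 1 with quantile normalization, 1 in that arm alone, 2 without K149 replicate 2 and 1 without either DMSO library of the AS1949490 arm. The count of 5 was 3 by edgeR on 8 libraries and by DESeq2. PPP2R5B, a regulatory subunit, rose by 1.02 ± 0.09 with K149 (adjusted p = 3.77e-07) and by 0.77 ± 0.11 with AS1949490 (adjusted p = 0.000107). PPP2R5A also rose with both (0.30 and 0.46). GAK rose with K149 (0.22) and PPP2R5E with AS1949490 (0.31). PPP2R1A, a scaffold subunit, fell with AS1949490 (-0.18, limma adjusted p = 0.0363). That call was lost without either AS1949490 library, without DMSO replicate 1 of that arm and without any 1 of the DMSO libraries of the K149 arm. It was also lost with no filter, with quantile normalization, with a block for the replicate number and in a fit of the AS1949490 arm alone. With median-of-ratios scaling, edgeR on 10 libraries and DESeq2, 2 partners fell with AS1949490. MDM2, a p53 target that binds cyclin G1, was at -0.03 ± 0.06 with K149 (adjusted p = 0.596) and 0.26 ± 0.07 with AS1949490 (adjusted p = 0.00538).

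The genes whose levels ran closest to each cyclin over the 10 libraries were found by Pearson r of log2(CPM + 1) among genes averaging at least 5 CPM. The 10 libraries fall into 4 groups, so r mostly reflects group means and is given as a description. CCNA2 ran closest to CENPK (r = 0.999), TTK and KIF15, which act at the kinetochore and spindle. KIF15 averaged 1.47 CPM with K149 and 44.4 CPM in its DMSO, and 20.6 CPM with AS1949490 and 30.5 CPM in its DMSO. CCNB1 ran closest to VRK1 (r = 1.00), AURKA and TPX2, the activator of AURKA, and CCNB2 to OIP5 (r = 0.999), CENPH and FANCC. CCNE2 ran closest to MIS12 (r = 0.995), DNAJC9 and AURKB. AURKB averaged 2.20 CPM with K149 and 56.1 CPM in its DMSO, and 38.5 CPM with AS1949490 and 90.8 CPM in its DMSO. CCNE1 ran closest to COLGALT1 (r = 0.995), AC037459.4 and TTLL12, and so lay with other genes than CCNE2 did. CCND1 ran closest to SEMA6A (r = 0.989), PCDHB2 and GOLM1. SEMA6A averaged 36.7 CPM with K149 and 10.8 CPM in its DMSO, and 10.04 CPM with AS1949490 and 10.7 CPM in its DMSO. CCND3 ran closest to PSMD3 (r = 0.997), MT2A and FXYD5, which share its higher level in the AS1949490 arm. MT2A averaged 25.2 CPM with K149 and 34.2 CPM in its DMSO, and 91.7 CPM with AS1949490 and 152 CPM in its DMSO. CCNG1 ran closest to ARHGAP23 (r = 0.996), and CCNG2 to PAPSS2 (r = 0.997), ID2 and MAN2B1. ID2, an inhibitor of helix-loop-helix factors, averaged 191 CPM with K149 and 73.3 CPM in its DMSO, and 44.6 CPM with AS1949490 and 38.3 CPM in its DMSO.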

How the data were processed

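Libraries were made from KYSE-410 total RNA with the Ovation Solo RNA-Seq kit, per the labels' protocols. The tools were STAR 2.5.3a and HTSeq with the hg38 build, per the submitters' processing notes. The sources used here do not name an annotation or a strand setting. The authors deposited CPM for 58302 Ensembl IDs, of which 58039 matched GENCODE 29 (GRCh38), used for positions and exon lengths. Every CPM value was a whole multiple of a library's step of about 0.05 CPM (100% within 0.05 of a step), so depth was inferred from the steps, a scaling that no source records.

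Genes that reached a group mean of 1 CPM anywhere were tested on log2(CPM + 1) with limma 3.58.1 (R 4.3.3; empirical Bayes with trend, 10 libraries, 4 group means), two-sided, with Benjamini-Hochberg adjustment over all 17837 genes and a threshold of 0.05. This scale understates the folds of low genes. Approximate 95% intervals are the log2 fold ± 1.96 SE, which is narrower than the t distribution used by limma would give. Groups came from the titles, and from the library name for DMSO replicate 3 of the K149 arm. P-values measure the spread between these libraries, which may be technical. Alternatives were other pseudocounts, filters and scalings, each arm alone, a block for the replicate number, leaving out each library, and edgeR 4.0.16 and DESeq2 1.42.0 on the recovered steps. On simulated K149 data limma recovered 80.0%, 97.4% and 96.5% of genes changed by 0.5, 1 and 2 on the log2 scale. Of its calls there 6.15% were false. The simulation changed 200 of 17127 genes, none of them low, from a mean shared by all groups. In the real K149 comparison 66.4% of tested genes were called, so these rates may not carry over. The AS1949490 comparison was not simulated.

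The members and gene lists were chosen with earlier results of these data known. The text names all 10 cyclins, any called gene of the kinase, CDK inhibitor and tyrosine switch lists, up to 3 called genes per direction and inhibitor of the other lists, and the 3 genes most like each cyclin, except that for CCNG1 the closest alone is given and the rest are not reported here. Exon overlap of at least 25% is called uncertain.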

Additional observations from a re-analysis of the deposited data

Results flagged for a closer look

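For 8 of the 9 tested cyclins, the effect of K149 minus the effect of AS1949490 differed from 0 in limma (adjusted p under 0.05), with doses and control libraries that differed between the arms. Of all tested genes 40.4% were called in that comparison, 15.1% higher and 25.3% lower. On the log2 scale the difference was -3.33 for CCNA2, -2.87 for CCNB2, -2.8 for CCNB1, -1.09 for CCNE2, -1.04 for CCNE1 and -0.44 for CCNG1. It was 0.41 for CCND1 and 1.21 for CCNG2. All 8 calls held in each alternative tried. For CCNE2, CCNA2, CCNB1 and CCNB2 both inhibitors lowered the level, and for CCND1, CCNE1, CCNG1 and CCNG2 a change passed with K149 and did not pass with AS1949490 in the main limma fit. Both AS1949490 values of CCNE1 were nevertheless below both controls. Its change with AS1949490 passed with median-of-ratios scaling, quantile normalization, edgeR on 10 libraries and a pseudocount of 5. No group had the 4 or more libraries needed to look for a single library far from the others.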

How the results depend on the processing

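All 9 calls with K149 and all 8 differences between the inhibitors held in every alternative, leaving out each library included. Of the recomputed member values, 736 kept direction and side of the threshold, 18 changed direction, 10 passed anew and 10 no longer passed, and every change of direction was in a value that did not pass. For CCND1 with AS1949490 the log2 fold was 0.068 with quantile normalization. For CCNG2 with AS1949490 it was -0.052 with quantile normalization, -0.00029 and -0.087 with edgeR on 10 and 8 libraries and -0.019 with DESeq2. For CCND3 the difference between the inhibitors was -0.0011 with edgeR on 8 libraries. For CCND1 between the DMSO groups it was 0.10 with quantile normalization, 0.030 with the replicate block and 0.051 with the crossed block. Leaving out 1 library gave -0.13 to 0.052 for CCND1, -0.15 to 0.0057 for CCNG1 and -0.0056 to 0.17 for CCNG2 with AS1949490, -0.069 to 0.10 for the CCND3 difference and -0.092 to 0.088 for CCND1 between DMSO groups. In edgeR on 8 libraries the AS1949490 arm had 1 control library, DMSO replicate 2. Against it the log2 folds with AS1949490 were -0.21 for CCND1 and -0.23 for CCNG1, and CCND1 between the DMSO groups was at -0.16. That library was the higher control for both genes, at 579.9 and 71.3 CPM, where DMSO replicate 1 had 511.6 and 64.0 CPM. CCNE2 between the DMSO groups also missed with no filter (adjusted p = 0.0528), and CCNB1 there passed with quantile normalization (adjusted p = 0.0319). Of all genes, 5727 were higher with AS1949490, 3702 with edgeR on 8 libraries and 3791 with DESeq2. Without division by length, the shares with K149 minus DMSO were -4.535 points for CCND3 and 21.6 for CCNG2, and 1.56 for CCNG2 with AS1949490. The CCNE2 share with K149 minus DMSO ran from -0.196 to 2.82 points when 1 library was left out. Same-numbered libraries of the K149 arm correlated at 0.101, 0.0461 and -0.0124, and not every library correlated best with its own number, so the numbers were not taken as pairs. With the replicate block 11479 genes were called with K149 (11837 without) and 8579 with AS1949490 (9205 without), and CCNE2 and CCNB2 between the DMSO groups no longer passed (adjusted p = 0.18 and 0.17). In the AS1949490 arm the numbers differ between sources, since the titles number the libraries 1 and 2 in both groups while the library names number the DMSO libraries 1 and 3 and the AS1949490 libraries 2 and 3, so a block by title number there may join unrelated libraries. The correlation by title number was -0.242, and a crossed pairing, chosen after seeing the data, called 9534 genes with AS1949490. The cause of these changes was not tested. The low levels of CCND2 and CCNE1 limit what can be said of these genes.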
